A study of Mus musculus with 12 samples.

Results

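Of the 15344 genes in the expression tables of mouse quadriceps, 46 belong to the set described here. It holds every gene whose symbol starts with Nduf, together with BC002163, a processed copy of Ndufs5. By role the set has 36 nuclear-encoded subunits of respiratory complex I, 7 assembly factors named Ndufaf, the Nduf genes Ndufa4 and Ndufa4l2 whose products are not counted as complex I subunits, and the copy. The subunits comprise 7 core subunits, 10 accessory subunits of the peripheral arm, 9 of the proximal membrane arm and 10 of the distal membrane arm. Ndufb1 and Ndufaf8 were not analysed here.

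RNA-seq was performed on quadriceps muscle of 12 mice, 4 in each of 3 groups, all on a C57BL/6 background and all 6 months old. The groups were untreated wild-type mice (WT), mice lacking acid alpha-glucosidase and injected with PBS (GAA knock-out, labelled KO), and GAA knock-out mice that received AAV2/8-LSPhGAApA at 2 months of age (labelled AAV). The knock-out mice were male, and the sex of the wild-type mice is not given in the sources used here. This vector expresses human GAA in the liver only and was given once through the tail vein at 2e12 vg/kg, so the muscle was not its site of expression. Acid alpha-glucosidase degrades lysosomal glycogen, its loss causes Pompe disease, and the comparisons ask which transcripts differ in the diseased muscle and which differ after treatment.

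Complex I (NADH:ubiquinone oxidoreductase) is the entry point of electrons from NADH into the mitochondrial respiratory chain and pumps protons across the inner membrane. Its peripheral arm in the matrix carries the flavin and the iron-sulphur clusters, and its membrane arm, whose core is encoded by mitochondrial DNA, moves the protons. The accessory subunits surround this core, and assembly factors join the modules without staying in the finished enzyme. Oxidative muscle fibres are rich in this machinery.

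The 12 libraries held between 22122233 and 47379737 counted reads. All values below are normalised counts, that is reads divided by 1 size factor for each library, and all fold changes are on the log2(value + 1) scale, tested with limma and Benjamini-Hochberg (BH) adjustment over all genes. Calls rest on an adjusted p under 0.05 in limma unless another tool is named. The targeted gene went against its labels: Gaa lay between 11936 and 13074 in the libraries labelled KO, between 323.8 and 460.3 in WT animals 1, 3 and 4 and at 14640 in WT animal 2, and between 499.6 and 946.8 in AAV animals 1, 2 and 3 and at 9854 in AAV animal 4. The gene's count does not show which exons the reads cover, so it does not test the disrupted allele, and groups are therefore named by their labels. WT animal 2 and AAV animal 4 stand apart by this gene, and the counts of complex I genes are given with and without them. The labelled tissue was borne out by its markers, since all 9 skeletal muscle fibre genes examined were tested and summed to between 3615821 and 6399848 normalised counts in each library.

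Complex I transcripts were lower in the KO-labelled than in the WT-labelled libraries. Of the 46 genes, all of which passed the filter on low values, 29 were lower and 2 were higher (limma, BH), while 27.6% of all 14859 genes tested were called, 15.3% as lower and 12.3% as higher. The median log2 fold change of the 46 genes was −0.60, and that of all genes was 0.02. After correction for gene length the median of the 46 genes was −0.33. A fall of at least 1 on the log2 scale was found for 5 members (BC002163, Ndufb2, Ndufb3, Ndufa6 and Ndufa13), and 8.5% of all genes fell this far. A rise of at least 1 was found for Ndufs5 only, and for 5.43% of all genes. The animals of the 2 groups did not overlap for 32 members, 30 of them lower and 2 higher, whereas this held for 28.3% of all genes, 15.1% lower and 13.3% higher. Without WT animal 2, 25 members were lower and 2 higher, beside 10.2% and 7.65% of all genes. With 1 animal left out, members lower ranged from 21 to 31. The share called among all genes was between 15.9% and 17.9% without WT animal 2, WT animal 4 or any 1 of the KO animals, and 48.4% without WT animal 3. In bulk muscle, fewer cells that express a gene and less RNA in each cell cannot be told apart.

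Of the 44 members other than Ndufs5 and BC002163, 28 were lower, and 23 of these were among the 28 accessory subunits. All 10 of the distal membrane arm were lower (median −0.81), beside 15.3% of all genes. So were 8 of 10 of the peripheral arm (median −0.66), and 5 of the 8 of the proximal membrane arm other than Ndufs5 (median −0.62). Ndufab1, which was not called, was counted in the peripheral arm only. After correction for gene length 7 of the 10 distal membrane arm genes were lower. Of the core subunits 3 of 7 were lower (median −0.27), and of the assembly factors 1 of 7 (median −0.35). Whether these groups of genes differ from one another was not tested.

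**Figure D1:**
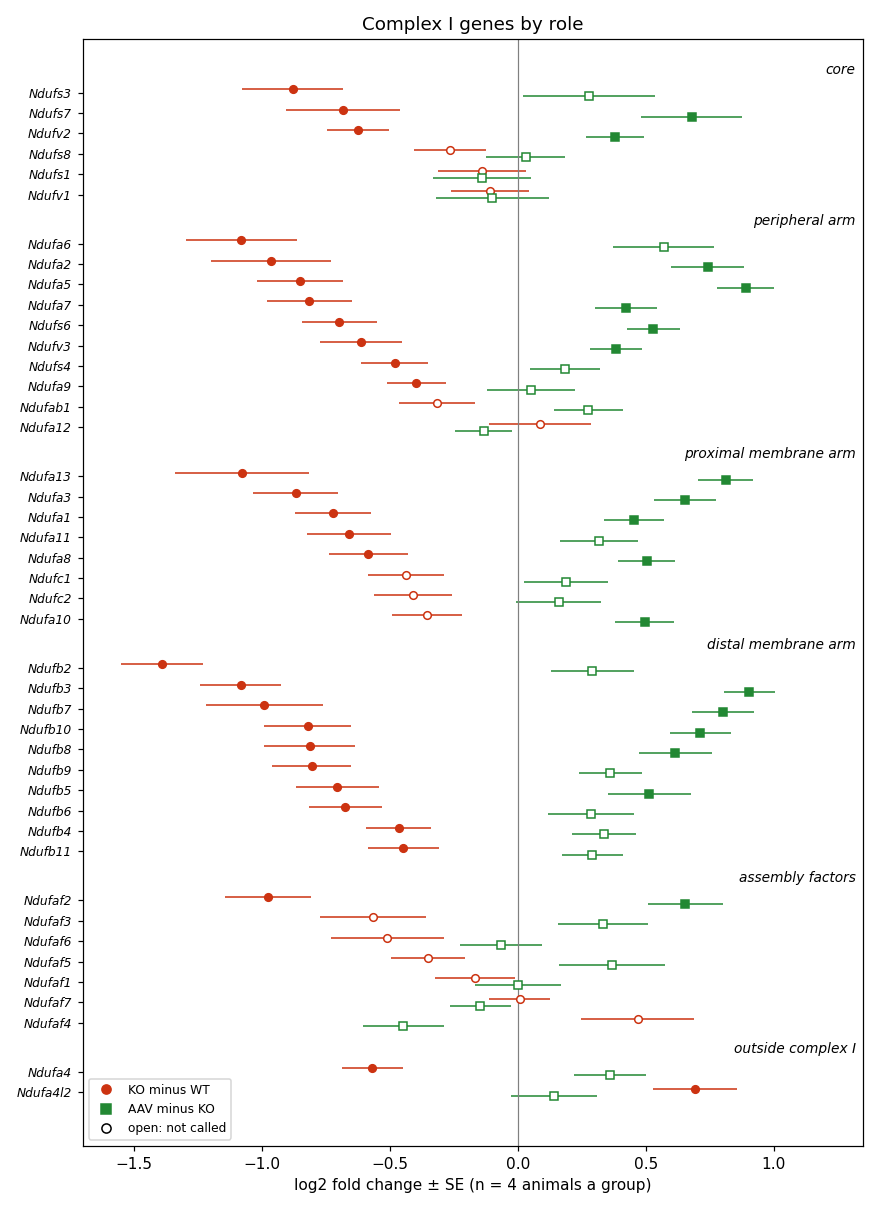
Log2 fold change with its standard error for 43 members, grouped by role, between libraries labelled KO and WT (circles) and between libraries labelled AAV and KO (squares), with 4 animals a group. Filled symbols were called at an adjusted p under 0.05 (limma, BH). Ndufs5 and BC002163 lie outside the axis and are left out. All 10 genes of the distal membrane arm have filled circles on the left.

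Among single animals, the mean log2 deviation of the 35 subunits other than Ndufs5 from their own mean over all 12 animals lay between −0.52 and −0.24 in the libraries labelled KO, between 0.06 and 0.56 in those labelled WT, and between −0.10 and 0.19 in those labelled AAV. The libraries labelled KO did not overlap either of the other groups on this measure. WT animal 2 had the highest WT value for 30 of the 44 members other than Ndufs5 and BC002163, and WT animal 1 had the lowest for 28. Within the libraries labelled KO, animal 1 was the lowest for 25 members. AAV animal 3 was the highest of its group for 26 members and AAV animal 1 the lowest for 24.

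**Figure D2:**
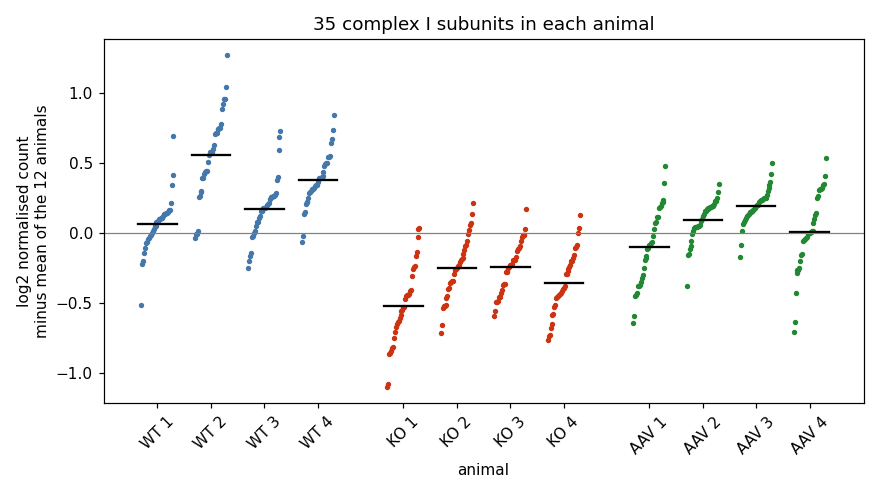
Log2 normalised count of each of 35 complex I subunits, relative to its mean over the 12 animals, in each animal. Points are subunits sorted by value and bars are the mean over subunits. The 4 KO bars lie between −0.52 and −0.24, below all 8 others.

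The core subunits of the peripheral arm hold the redox centres, and 3 of these 7 were called. Positions here and below are those of GENCODE M21 on GRCm38, and each span covers the exons and introns of the gene. Ndufv2 (chr17:66078638-66101559, − strand), which carries an iron-sulphur cluster next to the flavin site, had 11528, 14218, 12275 and 13899 normalised counts in WT animals 1 to 4, 7816, 9009, 9032 and 7815 in the libraries labelled KO, and 10082, 11535, 12012 and 10179 in those labelled AAV. Every KO value was below every WT value and every AAV value. It fell by 0.62 ± 0.12 (SE) on the log2 scale between the labels WT and KO (adjusted p = 0.00673, limma, BH).

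Ndufs3 (chr2:90894634-90904827, − strand), a core subunit of the ubiquinone-reducing module, had 3335, 4397, 3971 and 3206 normalised counts in WT, 1465, 1990, 1946 and 2869 in KO, and 2475, 2368, 3720.2 and 1609 in AAV. The WT and KO animals did not overlap, while the AAV animals spanned both. Its difference between the labels KO and WT was −0.88 ± 0.20 (SE) in log2 (adjusted p = 0.0116, limma, BH). Ndufs7 (chr10:80249121-80256794, + strand), which carries the last cluster before ubiquinone, had 9749, 15308, 10866 and 12860 in WT, 4788, 9041, 8644 and 8396 in KO, and 11113, 12028, 13765 and 11247 in AAV. All 4 KO animals were below the other 8, animal 1 the most. The log2 difference of Ndufs7 between KO and WT was −0.68 ± 0.22 (SE, adjusted p = 0.0446, limma, BH), and this call was lost when any 1 animal other than WT animal 3 was left out (adjusted p from 0.0505 to 0.114) and after correction for gene length or GC content.

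The core subunits Ndufv1, Ndufs1 and Ndufs8 were not called. Ndufv1 (chr19:4007384-4012806, − strand), the subunit that binds flavin mononucleotide and NADH, had 7951, 11157, 12254 and 9142 normalised counts in WT, 9454, 10205, 9115 and 8336 in KO and 5935, 11372, 11959 and 6898 in AAV, and the 3 groups overlapped. The values of Ndufs1 (chr1:63143596-63176833, − strand), the largest subunit of the peripheral arm, were 6955, 6881, 11377 and 6761 in WT, 7237, 7419, 7012 and 6599 in KO, and 5421, 8142, 8396 and 4541 in AAV. The highest of these 12 was WT animal 3, and the groups overlapped. Ndufs8 (chr19:3908863-3912774, − strand), which also builds the ubiquinone-reducing module, had 3943, 5733, 5237 and 4833 in WT, 3679, 4526, 4324 and 3803 in KO, and 3352, 4969, 5009 and 3574 in AAV. For this gene, too, the groups overlapped. The log2 differences between KO and WT were −0.11 ± 0.15 for Ndufv1, −0.14 ± 0.17 for Ndufs1 and −0.27 ± 0.14 for Ndufs8 (SE, adjusted p from 0.174 to 0.609, limma, BH).

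**Figure D3:**
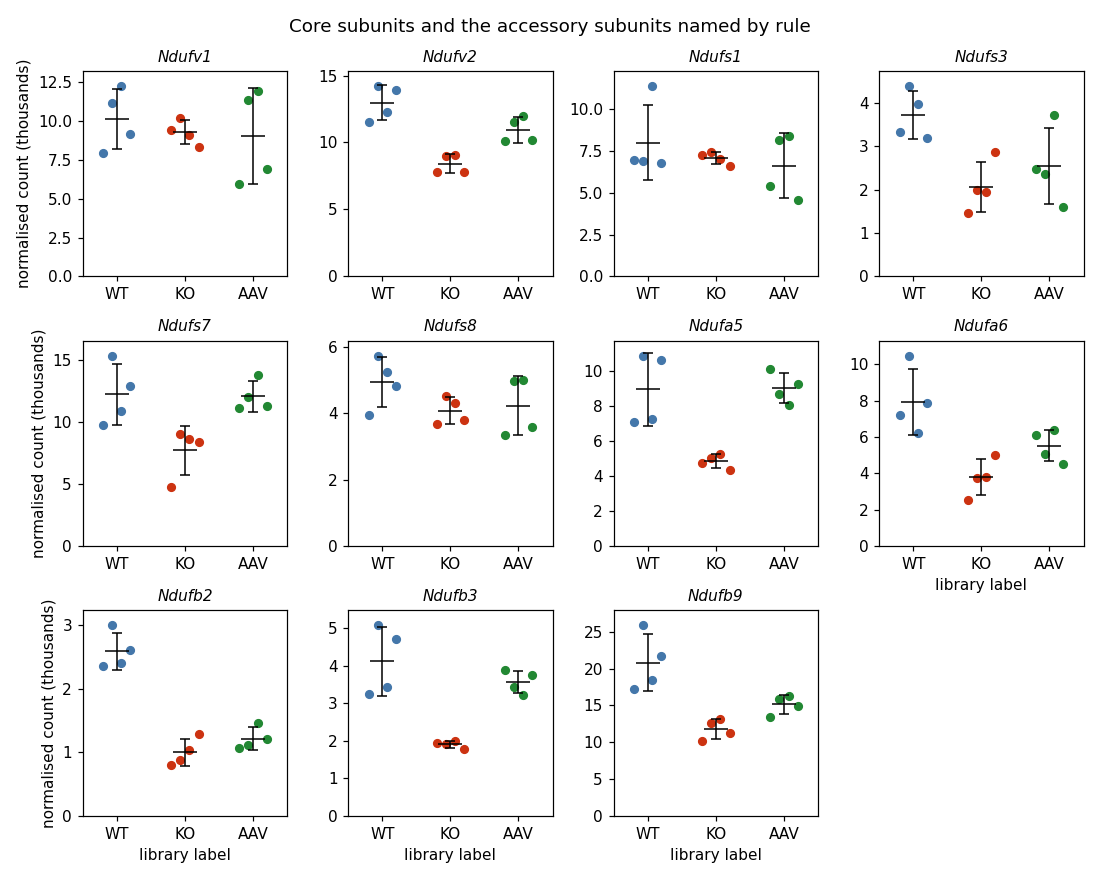
Normalised counts, on axes marked in units of 1000, of 6 core subunits and 5 accessory subunits in each animal by library label, with the mean and SD of 4 animals. Axes start at 0 and differ between panels. The KO points lie below all WT points for Ndufv2, Ndufs3, Ndufs7 and the 5 accessory subunits, and overlap them for Ndufv1, Ndufs1 and Ndufs8.

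Accessory subunits of the peripheral arm have no redox centre. Ndufa6 (chr15:82350140-82354322, − strand), an LYR protein at the junction with the membrane arm, had 7196, 10461, 6200 and 7862 normalised counts in WT, 2554, 3767, 3821 and 4997 in KO, and 6092, 5061, 6364 and 4538 in AAV. The KO animals were below all WT animals but overlapped the AAV animals, and the log2 difference from WT was −1.08 ± 0.22 (SE, adjusted p = 0.00785, limma, BH). Ndufa5 (chr6:24518666-24528013, − strand), another subunit of this arm, had 7042, 10842, 7237 and 10582 in WT, 4756, 5038, 5269 and 4364 in KO, and 10091, 8638, 8034 and 9259 in AAV. Here the KO animals lay below both other groups, and the fall from WT was −0.85 ± 0.17 (SE, adjusted p = 0.00718, limma, BH). The remaining called members of this arm were Ndufa2 (−0.96), Ndufa7 (−0.81), Ndufs6 (−0.70), Ndufv3 (−0.61), Ndufs4 (−0.48) and Ndufa9 (−0.40). Ndufs4 and Ndufs6 are needed late in the assembly of the NADH-binding module. Ndufab1, the mitochondrial acyl carrier protein, which is also used in lipoic acid synthesis, had a log2 difference of −0.32, and Ndufa12 one of 0.09, and neither was called.

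The distal membrane arm is the proton-pumping tip. Its gene Ndufb2 (ENSMUSG00000002416, chr6:39592574-39603382, + strand, GRCm38) had 2354, 2999, 2415 and 2613 normalised counts in WT, 801, 885.9, 1036 and 1286 in KO, and 1068, 1118, 1467 and 1209.5 in AAV. Both the KO and the AAV animals were below every WT animal, and they overlapped each other. The log2 difference between KO and WT was −1.39 ± 0.16 (SE, adjusted p = 0.000731, limma, BH). Ndufb3 (chr1:58586384-58595964, + strand) had 3251, 5069, 3419 and 4704 in WT, 1947, 1910.4, 1994 and 1776 in KO, and 3873, 3444, 3221 and 3753 in AAV, so that the KO animals lay in a narrow band below the other 8. Its difference between KO and WT was −1.08 ± 0.16 (SE, adjusted p = 0.00213, limma, BH). Ndufb9 (chr15:58933756-58939488, + strand), another LYR protein and the subunit with the highest median level per kilobase of exon among the 46 genes, had 17239.7, 25852, 18383 and 21731 in WT, 10231, 12570, 13180.5 and 11252 in KO, and 13440.4, 15880.1, 16262 and 14924 in AAV. These 3 groups did not overlap, with KO lowest and WT highest, and the KO difference from WT was −0.81 ± 0.16 (SE, adjusted p = 0.00667, limma, BH). The rest of the arm lay between −0.99 for Ndufb7 and −0.45 for Ndufb11.

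In the proximal membrane arm the called genes were Ndufa13 (−1.08), Ndufa3 (−0.87), Ndufa1 (−0.72), Ndufa11 (−0.66) and Ndufa8 (−0.58). Ndufa13 is also known as GRIM-19, and Ndufa1 is X-linked. Ndufc1 (−0.44), Ndufc2 (−0.41) and Ndufa10 (−0.36) were not called by limma or edgeR, although the KO and WT animals did not overlap for Ndufc2, and DESeq2 called Ndufc1 and Ndufa10 lower.

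Ndufs5, an accessory subunit with twin CX9C motifs that faces the intermembrane space, departed from all others, and it did so together with its copy. The copy BC002163 (ENSMUSG00000081824) is annotated as a processed pseudogene at chr16:42955631-42955949 on the + strand of GRCm38, and Ndufs5 (ENSMUSG00000028648) lies at chr4:123712710-123718202 on the − strand. The 319 bases of the copy match the transcript Ndufs5-201 (525 bases) from its base 93 with an identity of 99.37%, and 206 bases of that transcript lie outside the match. The only differences are T81C and A105G, with the Ndufs5 base first and positions counted from 1 at the first base of the copy. Only reads with a single mapping location were counted. How reads from this stretch were assigned was not tested. Bases 66 to 120 of the match, from the GENCODE M21 transcripts, are shown because they hold both positions, which are in capitals. In the copy they lie at chr16:42955696-42955750.
Ndufs5: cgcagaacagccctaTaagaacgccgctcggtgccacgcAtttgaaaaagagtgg
BC002163: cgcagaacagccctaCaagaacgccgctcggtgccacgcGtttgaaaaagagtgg

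Ndufs5 had 4.52, 8.5, 3.25 and 14.6 normalised counts in WT animals 1 to 4, 427, 475, 473 and 470 in the libraries labelled KO, and 15.2, 13.1, 11.8 and 21.1 in those labelled AAV. BC002163 had 719, 1283, 787 and 966 in WT, 73.4, 59.9, 66.3 and 50.4 in KO, and 1092, 874, 890 and 782 in AAV. The KO animals were apart from the other 8 for both genes, above them for Ndufs5 and below them for the copy. The log2 difference between KO and WT was 5.91 ± 0.36 for Ndufs5 (SE, adjusted p = 1.97e-05, limma, BH) and −3.86 ± 0.21 for BC002163 (SE, adjusted p = 7.01e-06, limma, BH).

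As a share of both genes, Ndufs5 took between 85.3% and 90.3% in the libraries labelled KO, between 0.41% and 1.49% in WT and between 1.31% and 2.63% in AAV. WT animal 2 and AAV animal 4, whose Gaa count was near that of the libraries labelled KO, had shares of 0.66% and 2.63%. The sum of both genes was 524 ± 17.4 (SD, n = 4) in KO, 947 ± 254 in WT and 925 ± 129 in AAV. The sum in KO was 0.553 of that in WT, with no overlap (two-sided exact permutation test, p = 0.0286, the smallest that 4 against 4 animals can give). The log2 ratio of the sums was −0.85. How reads were divided between both genes was not tested, so the count of either gene alone is uncertain. Reads with more than 1 location were counted for neither gene, so the sum may miss reads and is uncertain as well.

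**Figure D4:**
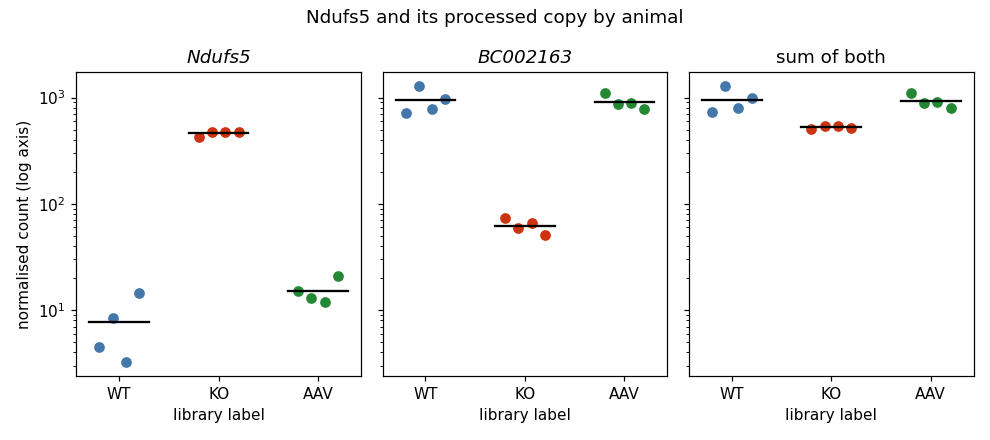
Normalised counts on a log axis of Ndufs5, of its processed copy BC002163 and of their sum in each animal, by library label, with bars at the mean of 4 animals. The KO points lie above all others for Ndufs5, below them for the copy, and between 500.5 and 539 for the sum.

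A search of transcripts found a copy with at least 90% identity over at least 50% of the length for 8 of the 46 genes. Besides Ndufs5 and BC002163 themselves, the tables held such copies of Ndufb11 (Gm6444), Ndufs3 (Gm12251) and Ndufs6 (Ndufs6b). None of these had more than 14.6 normalised counts in any library, against at least 1465 for each of the 3 subunits.

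Among the assembly factors, Ndufaf2, which binds late intermediates before Ndufa12 takes its place, had 513, 566, 391 and 604 normalised counts in WT, 217, 281, 262 and 284 in KO, and 445, 365, 363 and 476 in AAV. The KO animals were below the other 8, and the log2 difference from WT was −0.98 ± 0.17 (SE, adjusted p = 0.00427, limma, BH). The remaining factors were not called by limma or edgeR and ranged from −0.57 for Ndufaf3 to 0.47 for Ndufaf4, and DESeq2 called Ndufaf3 and Ndufaf6 lower as well, 3 of 7 in place of 1. Of 10 other assembly factors, which are not named Nduf, 2 were lower (Lyrm2 −0.79 and Timmdc1 −0.57) and 3 were higher (Tmem186 0.58, Tmem126b 0.56 and Aifm1 0.50). Tmem126b and Tmem186 belong to the MCIA complex that builds the membrane arm, and Aifm1 takes part in the import of subunits. The median of the 10 was 0.01.

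Ndufa4, which is now assigned to complex IV, fell by 0.57 ± 0.12 (SE, adjusted p = 0.00933, limma, BH). Its hypoxia-inducible paralogue Ndufa4l2 had 152, 152, 156 and 113 normalised counts in WT, 214, 263, 243 and 207 in KO, and 273, 290, 281 and 188 in AAV. The WT animals lay below all 8 others, and the rise in KO was 0.69 ± 0.16 (SE, adjusted p = 0.0138, limma, BH). Endothelial genes, which mark another cell type of muscle, moved in the same direction: 3 of 5 were higher in KO (Tie1, Cdh5 at 1.03 and Pecam1 at 0.91), and the list summed to 1761 to 4794 normalised counts in WT and 4131 to 5297 in KO. Pecam1 was not called by edgeR, which called Tie1 and Cdh5. The part of endothelial genes in the value of Ndufa4l2 was not tested.

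In the libraries labelled AAV, part of the complex I transcripts were higher than in those labelled KO. Of the 46 genes, 19 were higher and 1 was lower (limma, BH), while 26.3% of all 14894 genes tested were called, 12.8% as higher and 13.4% as lower. This split depends on the scaling, and with scaling by total reads 16.1% of all genes were higher and 8.53% lower, beside 25 members higher and 1 lower. The median log2 difference was 0.35 for the 46 genes and 0.04 for all genes. The groups did not overlap for 22 members, 20 of them higher and 2 lower in AAV, and for 30.6% of all genes, 14.8% higher and 15.8% lower. Without AAV animal 4, 18 members were higher and 1 was lower, beside 10.8% and 11.3% of all genes. The share called among all genes was between 13.2% and 15% without AAV animal 1 or KO animal 1, 2 or 4, where 13 to 18 members were higher. This comparison shares its KO animals with the one above, so an extreme KO value moves both.

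The genes higher in AAV were spread over the accessory subunits, while 12.8% of all genes were higher. They were 5 of 10 in the peripheral arm, 5 of 8 in the proximal membrane arm other than Ndufs5 and 5 of 10 in the distal membrane arm. The largest differences among these were those of Ndufb3 (0.90 ± 0.10, SE, adjusted p = 0.000861, limma, BH) and Ndufa5 (0.89 ± 0.11, SE, adjusted p = 0.00164, limma, BH). Ndufa13 (0.81), Ndufb7 (0.80), Ndufa2 (0.74) and Ndufb10 (0.71) followed. Ndufa10 was higher in AAV (0.50) and had not been called between KO and WT. Of the core subunits only Ndufs7 (0.68) and Ndufv2 (0.38) were called, and each of these calls was lost when some single animals were left out. edgeR did not call Ndufv2 or Ndufb5, which left 1 of 7 core subunits and 4 of 10 genes of the distal membrane arm. Ndufs1, Ndufs8 and Ndufv1 had differences between −0.14 and 0.03. Ndufaf2 was higher (0.65), and Ndufaf4 had a difference of −0.45 with no overlap between the groups but was not called (adjusted p = 0.0594, limma, BH).

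Ndufa6 and Ndufb9 had differences of 0.57 and 0.36 between AAV and KO (adjusted p = 0.056 and 0.054 in limma, BH), and DESeq2 called both. A gene called in one comparison and not in the other is not thereby shown to differ between them, and this difference was not tested.

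Ndufs5 was lower in AAV than in KO (−4.86 ± 0.20, SE, adjusted p = 1.53e-06, limma, BH), and BC002163 was higher (3.84 ± 0.16, SE, adjusted p = 1.53e-06, limma, BH). Their sum was higher in AAV by 0.82 in log2, with no overlap (two-sided exact permutation test, p = 0.0286). Of the 10 other assembly factors, 0 were called higher in AAV, and 3 had positive differences. Tmem126b (−0.78) and Aifm1 (−0.72) were called lower, 2 of 10, beside 13.4% of all genes. Tmem126b lay between 699 and 824 normalised counts in KO, between 416 and 627 in WT and between 418 and 482 in AAV, so the KO animals were above all others.

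Between the libraries labelled AAV and WT, 1 of the 46 genes was called, Ndufb2, while 1.29% of all 14939 genes tested were called, 0.341% as lower and 0.951% as higher (0.241% and 1.9% with scaling by total reads). Its log2 difference was −1.10 ± 0.15 (SE, adjusted p = 0.0132, limma, BH), and it was lower than in every WT animal in 4 of 4 AAV animals. The call was lost without AAV animal 1 (−1.04, adjusted p = 0.052), without AAV animal 2 (−1.06, adjusted p = 0.0819) and without both WT animal 2 and AAV animal 4 (−1.03, adjusted p = 0.108, limma, BH), where no member was called. The groups also did not overlap for Ndufb9 (−0.45, adjusted p = 0.207) and Ndufa4l2 (0.84, adjusted p = 0.0761, limma, BH), which makes 3 members, while 11.7% of all genes did not overlap (4.97% lower and 6.69% higher). The median of the 46 genes was −0.21 and 40 of them were negative, against a median of −0.03 over all genes. By exonic length, the median of all genes was −0.24 below 1000 bp and −0.20 from 1000 to 2000 bp, beside −0.20 and −0.21 for the 8 and 19 members of these lengths other than Ndufs5 and BC002163. From 2000 to 4000 bp the medians were −0.07 for all genes and −0.23 for 12 members. Ndufs5 differed by 1.05 ± 0.47 (SE, adjusted p = 0.273, limma, BH). The sum of Ndufs5 and its copy differed by −0.03 in log2 (two-sided exact permutation test, p = 0.886).

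The members are short genes, and length went with fold change across all genes. The median exonic length was 1644 bp for the members and 4143 bp for all genes, while the median GC contents were 50.1% and 49.9%. Between KO and WT the median log2 difference of all genes was −0.33 below 1000 bp, −0.32 from 1000 to 2000 bp, −0.08 from 2000 to 4000 bp and 0.11 from 4000 to 8000 bp. The members in these bins had medians of −0.69, −0.57, −0.44 and −0.85, over 8, 19, 12 and 4 genes. After correction for length, the median of the 44 members other than Ndufs5 and BC002163 was −0.33 in place of −0.60, and 19 of them in place of 28 were lower, beside 14.5% of all genes in place of 15.3%. In the distal membrane arm 7 of 10 genes were then lower, the exceptions being Ndufb4, Ndufb6 and Ndufb11. For AAV against KO the corrected median was 0.18 in place of 0.35, with 14 in place of 18 members higher and Ndufa12 lower, beside 11.1% and 12.9% of all genes.

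**Figure D5:**
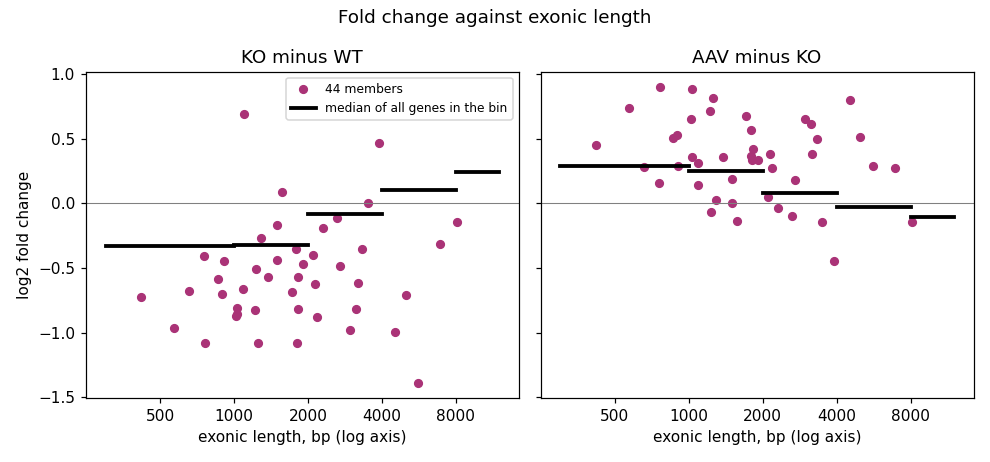
Log2 fold change against exonic length, on a log axis, for 44 members (points) between KO and WT and between AAV and KO. Black lines are the median of all genes tested in each length bin, from −0.33 in the shortest to 0.24 in the longest bin for KO minus WT. In the KO panel the members' medians lie below these lines in each bin.

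Fibre type markers moved with the same labels. All 6 slow fibre genes were lower in KO than in WT (median −3.51) and higher in AAV than in KO (median 5.49), and their sum lay between 128 and 200.1 normalised counts in KO, between 1346 and 4644 in WT and between 1678 and 21015 in AAV. None of the 6 was at 0 in any library, the lowest value being 1.77 in a library labelled KO. Gene by gene the labels overlapped in part. WT animal 1 lay inside the KO range for Myl2 (32.6, KO 12.4 to 56.6) and Myl3 (15.4, KO 1.77 to 29.4). AAV animal 4 lay inside it for Myl3 (20.2). Among fast myosins Myh2 (−1.89) and Myh1 (−1.36) were lower and Myh4 (0.73) higher in KO than in WT. The part of fibre type in the complex I values was not tested.

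Some markers of other cell types also differed between the labels. Of 3 red blood cell genes tested, Hba-a1 (2.16) and Hba-a2 (1.99) were higher in AAV than in KO by limma, edgeR and DESeq2, and the list summed to 35.9 to 387 normalised counts in KO, 363 to 1028 in AAV and 327 to 406 in WT. Of 4 macrophage genes tested, Cd68 was lower (−3.35) and Cd163 higher (0.79) in KO than in WT, and Cd68 was called higher in AAV than in KO by edgeR and DESeq2 but not by limma. The macrophage list summed to 336 to 638 in KO, 482 to 1191 in WT and 342 to 1110 in AAV. Of 6 adipocyte and 5 fibroblast genes, limma called 0 in either comparison (1 of each list had an unadjusted p under 0.05 between KO and WT and 0 between AAV and KO), while edgeR and DESeq2 called Lep higher and Col1a1 lower in KO than in WT. Their part in the complex I values was not tested.

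Of 8 genes used as a measure of mitochondrial content, Tomm20 (−0.69) and Tomm22 (−0.50) were lower in KO and the other 6 were not called, with a median of −0.14, and between AAV and KO 0 of the 8 were called by limma, by edgeR or by DESeq2, and 0 had an unadjusted p under 0.05.

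The rest of the respiratory chain and its regulators gave these counts. Between KO and WT, 2 of 4 subunits of complex II, 7 of 9 of complex III, 9 of 11 of complex IV and 8 of 15 of ATP synthase were lower, with medians of −0.41, −0.74, −0.83 and −0.46, and none was higher. Between AAV and KO, 2 of 4, 3 of 9, 7 of 11 and 6 of 15 were higher (limma), with medians of 0.30, 0.34, 0.54 and 0.29, and none was lower in limma. DESeq2 called Sdha lower there. Of all genes, 15.3% were lower in KO than in WT and 12.8% higher in AAV than in KO. The ATP synthase list includes Atp5g2 and Atp5l, with at most 16.5 and 23.4 normalised counts in any library. These lists are given without correction for gene length. The same KO animals enter both comparisons. Of the 5 complex I subunits encoded by mitochondrial DNA that were tested, 0 were called between KO and WT by limma, edgeR or DESeq2 (0 at an unadjusted p under 0.05 in limma and 1 in each of the other tools), and mt-Nd5 (−1.53) and mt-Nd2 (−1.34) were lower in AAV than in KO by limma and edgeR. DESeq2 called 4 of the 5 lower there, mt-Nd1 and mt-Nd4 being added. Ppargc1b, which encodes the coactivator PGC-1β, was lower in KO than in WT (−0.78) and higher in AAV than in KO (0.99), and Gabpa was lower in AAV than in KO (−0.74), while Ppargc1a, Nrf1, Esrra, Tfam and Yy1 were not called in either by limma or edgeR. DESeq2 also called Ppargc1a and Yy1 between AAV and KO.

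Promoter sequences from 250 bases before to 50 bases after the start site (RefSeq, GRCm38.p6) were found for 39 of the 46 genes and searched on both strands for 4 words bound by regulators of respiratory genes. A gene was counted if any of its promoters held the word. The YY1 word, the 11 capitals in the first 4 stretches shown here, was in 4 of the 39 genes (10.3%). It was in 0.755% of all 27025 genes with a promoter and in 1.64% of the 10483 of these in the tables. The NRF1 word, the 10 capitals in the last 3 stretches and the same on both strands, was in 3 (7.69%), against 1.07% of all and 2.19% of those in the tables. The ETS word CCGGAAGT was in 1 (Ndufs3, 2.56%), against 4.31% of all and 8.22% of those in the tables. The ERR word TCAAGGTCA was in 0 of 39, in 0.466% of all and in 0.324% of those in the tables. No searched word overlapped another in the stretches shown. A match is one of letters and no evidence of binding. The stretches of 30 bases, on the gene's own strand, are shown because they hold the words that were more frequent here than over all genes.
Ndufa9: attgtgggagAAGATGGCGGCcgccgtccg
Ndufs4: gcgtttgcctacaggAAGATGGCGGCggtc
Ndufs6: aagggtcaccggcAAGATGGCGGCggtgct
Ndufs7: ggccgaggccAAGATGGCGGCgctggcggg
Ndufa11: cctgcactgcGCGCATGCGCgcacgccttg
Ndufaf4: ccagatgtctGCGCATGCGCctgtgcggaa
Ndufaf5: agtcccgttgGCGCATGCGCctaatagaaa

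The positions of the YY1 stretches are chr6:126849096-126849125 (−) for Ndufa9, chr13:114388045-114388074 (−) for Ndufs4, chr13:73328433-73328462 (−) for Ndufs6 and chr10:80249463-80249492 (+) for Ndufs7, and the word begins at base 30, 36, 34 and 25 of the transcribed side. The NRF1 stretches lie at chr17:56717692-56717721 (+) for Ndufa11, chr4:24897960-24897989 (+) for Ndufaf4 and chr2:140170652-140170681 (+) for Ndufaf5, with the word beginning at −60, −113 and 17 from the start site. The 4 genes with the YY1 word were all lower in KO than in WT (−0.40 for Ndufa9, −0.48 for Ndufs4, −0.70 for Ndufs6 and −0.68 for Ndufs7). So were 26 of the 35 subunits other than Ndufs5, and 15.3% of all genes. Between AAV and KO, Ndufs6 (0.53) and Ndufs7 (0.68) were higher, and Ndufa9 (0.05) and Ndufs4 (0.18) were not called. Of the same 35 subunits 17 were higher there, and 12.8% of all genes. A link between the word and these differences was not tested. Of the 3 genes with the NRF1 word, Ndufa11 was lower in KO than in WT (−0.66) and the other two were not called.

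Levels per kilobase of exon are given within each label, since the labels differ in level. Ndufb9 had the highest median among the 46 genes under each label, with 19454 normalised counts per kilobase in WT, 11553 in KO and 14939 in AAV. Ndufa2 (14929 in WT, 7369 in KO and 11567 in AAV), Ndufa4 (13412, 8873 and 11429) and Ndufa1 (12788, 7637 and 10867) were also high, and Ndufa2 was above Ndufa4 in WT and AAV but below it in KO. Over all 12 animals, the ranges overlapped between these neighbours, for example 9924 to 25075 for Ndufb9 and 8249 to 14565 for Ndufa4. The medians of the 7 assembly factors lay between 139 (Ndufaf7) and 659 (Ndufaf5) in WT, between 91.2 (Ndufaf2) and 581 (Ndufaf1) in KO, and between 126 (Ndufaf7) and 654 (Ndufaf5) in AAV. The subunits Ndufb4, Ndufb2 and Ndufab1 had medians inside these ranges under each label. Ndufs5 was below them in WT (7.6) and AAV (16.4) and inside the range in KO (549). The exonic length counts every annotated exon, used in muscle or not, and it is long for Ndufab1 (6883 bp) and Ndufb2 (5628 bp), which lowers their values on this scale.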

How the data were processed

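RNA was extracted from split quadriceps, and mRNA libraries were sequenced. Per the labels and the methods, the authors trimmed reads (Trim Galore 0.4.1), aligned them to GRCm38 (STAR), dropped reads with several locations, obtained gene counts (HTSeq 0.6.1), left out genes under 10 reads in every library, and applied DESeq2 1.16.1 size factors. The deposited normalised counts (unit signal) are therefore not raw counts, but 100% of values in the 12 libraries were multiples of 1 step, within a tolerance of 0.1, which gave back whole reads. The authors' 2 tables (15344 genes) share identical KO columns. Their deposited log2 fold changes and standard errors, test statistics (a score), p-values and adjusted p-values were not used, and 0 per-sample columns were left out.

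Groups came from the labels. The count test of edgeR had been planned for raw counts. As the values are normalised, limma-trend (limma 3.58.1, R 4.3.3) on log2(value + 1) gave the main results, restricted to genes that reached 10 in 1 or more of the 8 libraries and adjusted by Benjamini-Hochberg. A pseudocount understates changes of genes with few reads. edgeR 4.0.16 and DESeq2 1.42.0 on recovered reads were alternatives, as were other scaling, filter, pseudocount (0.1), gene length and GC corrections (lowess, span 0.3), the replicate number as a block, and animals left out in turn. On simulated data for KO against WT (14859 genes, 200 changed), limma recovered 94.5% of genes changed by a log2 fold of 2 with 12 false calls among 201, and 0 of those changed by 0.7. In the real comparison 4097 genes were called, and BH adjustment is less strict where more genes differ. The simulation therefore does not give the share recovered in the real data. Exact permutation tests served for the sum of Ndufs5 and its copy.

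1 member counts in the totals but is not reported here on its own. Every other member may be named with its fold change. Values in each animal are given for the other 6 core subunits, Ndufs5, BC002163 and the 4 members of lowest adjusted p in each comparison; Ndufaf2 and Tmem126b were added after their values were seen. The members and gene lists were chosen with earlier results of these data known. Copies were found with BLAST 2.17.0 among GENCODE M21 transcripts. Promoters came from RefSeq.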

Additional observations from a re-analysis of the deposited data

Results flagged for a closer look

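Among the members given animal by animal, and the sum of Ndufs5 and its copy, 48 groups of 4 animals were examined for a single animal whose gap to its neighbour took more of its group's range than Dixon's 95% critical value allows. Chance alone is expected to mark about 2.4 of 48, and 5 were marked. Ndufa4l2 was lowest in WT animal 4 (113 normalised counts) and in AAV animal 4 (188). Ndufs1 was highest in WT animal 3 (11377). In the libraries labelled KO, animal 1 was lowest for Ndufs5 (427) and for Ndufs7 (4788).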

How the results depend on the processing

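Between KO and WT, the counts of called members lay between 20 and 33 for lower and at 2 or 3 for higher in the alternatives run, against 29 and 2. Correction for gene length moved the members' median to −0.33, and for AAV against KO to 0.18. Scaling by total reads shifted the median of all genes between AAV and KO from 0.04 to 0.20 and that of the members to 0.51, which left a distance of 0.31 in both scalings. Members lower in AAV than in KO numbered 2 in place of 1 with DESeq2 (Ndufaf4 added) and with length correction (Ndufa12 added), and ranged from 1 to 2 with 1 animal left out. Between AAV and WT, members called numbered 2 with DESeq2, with total reads and with all 12 libraries in 1 fit, where Ndufa4l2 was the 1 member higher, beside 6.37%, 2.14% and 5.89% of all genes; with 1 animal left out, called and lower members ranged from 0 to 1, and without WT animal 2 and AAV animal 4 both were 0, where the share called among all genes was 0.068%. With 1 animal left out that share ranged from 0.121% (AAV animal 2) to 2.97% (WT animal 3).

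With 1 animal left out, the log2 ratio of the sum of Ndufs5 and its copy ranged from −0.96 to −0.67 (KO against WT), from 0.72 to 0.88 (AAV against KO) and from −0.14 to 0.15 (AAV against WT), turning positive without AAV animal 4 (0.03) and without WT animal 2 (0.15). All of the p-values of the first 2 comparisons were then 0.0571, the smallest for 3 against 4. Ndufs5 alone in place of the sum gave 5.90, −4.91 and 0.98.

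Values not called that changed sign were, for KO against WT, Ndufs8 with length correction (0.040), Ndufv1 with length (0.020) and GC (0.065) correction, and Ndufs1 without WT animal 3 (from −0.21 to 0.040 with 1 animal left out). For AAV against KO they were Ndufa4l2 (−0.016) and Ndufs8 (−0.12) with length correction, Ndufa4l2 (−0.20) and Ndufs8 (−0.13) with GC correction, and Ndufs1 (0.025) and Ndufv1 (0.066) with total reads. With 1 animal left out this comparison ranged from −0.27 to 0.025 for Ndufs1, from −0.059 to 0.13 for Ndufs8 and from −0.26 to 0.081 for Ndufv1. The cause was not tested.

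Animals with the same replicate number did not deviate together (mean r = 0.0056, from −0.36 to 0.55 over 12 pairs), and in 6 of 24 cases a sample correlated best with its own number in another group. With the number as a replicate block, 27 members were called between KO and WT (25 lower), 17 between AAV and KO (16 higher) and 1 between AAV and WT, beside 20.6%, 14.6% and 0.884% of all genes, and the call of Ndufv2 between AAV and KO was lost (adjusted p = 0.0715, limma, BH). Reads per gene limit the precision for Ndufs5 outside the libraries labelled KO, where it had few.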
